A study of Arabidopsis thaliana with 12 samples.

Results

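AT1G12010 is 1 of the Arabidopsis genes for ACC oxidase, the enzyme that turns 1-aminocyclopropane-1-carboxylic acid (ACC) into the gaseous hormone ethylene. It was followed here through the only probe set that the platform's annotation lists for it, 264346_at, 1 of 22746 probe sets that are not controls on the array. The gene was chosen by its signal on these arrays, lower in arf6 arf8 young buds and higher in arf6 arf8 stage 13-14 flowers than in wild-type, so every difference between these genotypes is given as a description, without a test. The arrays measured total RNA of untreated Arabidopsis thaliana plants after 6 weeks of long days. Wild-type plants were Columbia. The double mutant arf6 arf8 is mutated in ARF6 and ARF8, a pair of auxin response factors, which are transcription factors that bind DNA and carry the response to auxin. The third genotype is named arf6/arf6 ARF8/arf8 in the sample titles but ARF6/arf6 arf8/arf8 in the text on the design. By either name it keeps a single functional copy of the pair, and it is called single-copy here. Each genotype was sampled once as flowers of stages 1-10, 11-12 and 13-14 and once as about 0.5 cm of stem just under the inflorescence, which makes 12 arrays with 1 for each genotype and tissue. No single level has a replicate error, and precision is limited by how few arrays there are. Nothing in the labels says whether arrays came from separate plants.

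Ethylene synthesis has a pair of dedicated steps: ACC synthases form ACC from S-adenosylmethionine, and ACC oxidases oxidise ACC to ethylene, releasing carbon dioxide and cyanide. Ethylene is perceived by membrane receptors, and the signal reaches the nucleus through the transcription factor EIN3 and its relatives. In flowers the hormone is known for its part in petal senescence and organ abscission. Flowers of arf6 arf8 are known to stay closed with short petals and filaments, so the label stage 13-14 does not stand for an open flower in that genotype.

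In wild-type, the AT1G12010 signal was 793.3 in young buds (stages 1-10) and went to 180.7 and then 100.4 over stages 11-12 and 13-14, with 178.0 in stem. The young-bud array was the highest of the 4, and each later flower stage was lower than the one before. In single-copy plants the signal was 56.9, 114.4 and 213.4 over the same stages and 246.1 in stem. This course ran the other way, from the lowest signal of all 12 arrays in young buds. In arf6 arf8 the signal went from 125.6 at stages 1-10 through 1269.5 to 2658.8 at stages 13-14, and stem held 683.7. The stage 13-14 and 11-12 arrays of arf6 arf8 were the highest of the 12, and its young buds were the lowest of its own 4 arrays. Whole flowers were measured, so more transcript per cell and more cells that hold it cannot be told apart.

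**Figure D1:**
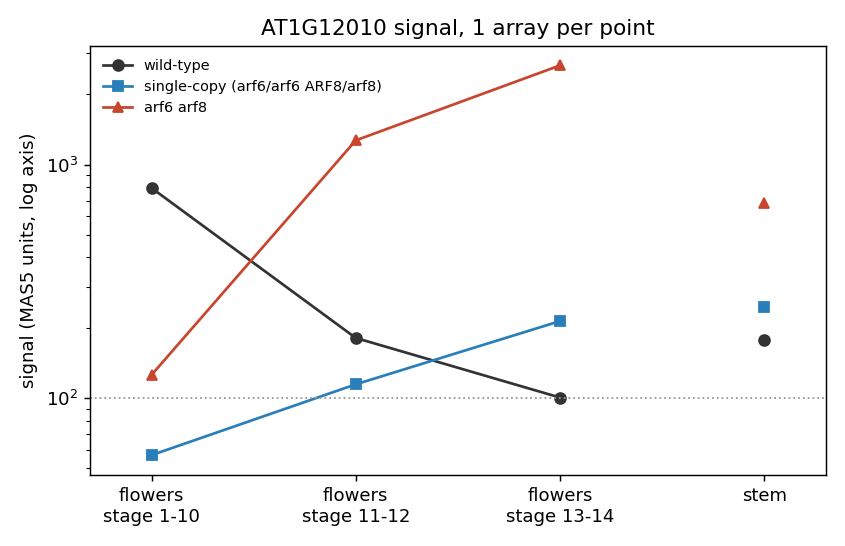
AT1G12010 signal (MAS5 units, log axis) by flower stage and in stem; each point is 1 array, lines join the flower stages of a genotype, and the dotted line is the signal of 100 that a probe set had to reach in at least 1 array. Over the flower stages wild-type runs down from 793.3 to 100.4, single-copy runs up from 56.9 to 213.4 and arf6 arf8 from 125.6 to 2658.8.

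From stages 1-10 to 13-14 the ratio of (signal + 50) was 0.178 in wild-type, 2.46 in single-copy and 15.4 in arf6 arf8. The added 50 damps the noise of dim probe sets and understates the change of low signals. A ratio at or under 0.5 over these stages was found in wild-type for 5.1% of the 17647 probe sets that reached a signal of 100 in at least 1 array, and a ratio of 2 or more for 14% in single-copy and 7.31% in arf6 arf8. In these counts the brighter array of a pair had to reach a signal of 200. The larger wild-type step lay between stages 1-10 and 11-12 (log2 ratio -1.87, at or under 0.5 in 2.5% of probe sets), with -0.62 between stages 11-12 and 13-14. In arf6 arf8 the earlier step was 2.91 and the later one 1.04 on the log2 scale, where 5.4% and 0.935% of probe sets reached 2-fold. In single-copy flowers the steps were 0.62 and 0.68, neither of them 2-fold.

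Stem lay on the same side of young buds as the older flowers did in each genotype. The ratio of stem to stage 1-10 flowers was 0.270 in wild-type, 2.77 in single-copy and 4.18 in arf6 arf8. Ratios at or under 0.5 made up 5.68% of probe sets in wild-type, and ratios of 2 or more made up 9.02% in single-copy and 3.57% in arf6 arf8. A ratio of stages 13-14 to 1-10 at or under 0.5 in wild-type together with one of 2 or more in arf6 arf8 was found in 24 probe sets (0.136%). In 2 of them (0.0113%), AT1G12010 and the carbohydrate kinase gene AT3G59480, the single-copy ratio was 2 or more as well. This and the other joint counts given here were chosen after the values of AT1G12010 had been seen.

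Between genotypes, the ratio of arf6 arf8 to wild-type was 0.208 in young buds, 5.72 at stages 11-12, 18.0 at stages 13-14 and 3.22 in stem (log2 -2.26, 2.52, 4.17 and 1.69). These are the values the gene was chosen for. At stages 1-10, 0.986% of kept probe sets were at or under 0.5, and 3.58%, 5.34% and 2.53% reached 2 at stages 11-12, at stages 13-14 and in stem. Against single-copy plants, a comparison that shares the arf6 arf8 arrays, the ratio was above 1 in every tissue: 1.64 in young buds, 8.03 and 10.3 over the later flower stages, and 2.48 in stem. The shares of probe sets at 2 or more in that comparison were 7.59% at stages 11-12, 5.07% at stages 13-14 and 0.935% in stem. So the lower young-bud signal of arf6 arf8 held against wild-type and not against single-copy buds. An arf6 arf8 signal at least 2-fold above both other genotypes was found for 194 probe sets (1.1%) in the 2 older flower stages, and for 26 (0.147%) when the stem was required too, 11 of them listed for 1 gene. Besides AT1G12010, these include the expansin-like gene EXLB1, the flavin monooxygenase gene FMO, the beta-glucosidase gene BGLU45 and AT4G27450. In young buds 12 of the 26 had a ratio of arf6 arf8 to wild-type below 1 and 2 of them one at or under 0.5. Over all kept probe sets the median log2 ratio in young buds was -0.005, so the 12 of 26 show no contrast with them. The log2 ratio there was 2.40 for EXLB1, 1.08 for FMO, -0.66 for BGLU45 and -0.73 for AT4G27450, beside the -2.26 of AT1G12010.

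**Figure D2:**
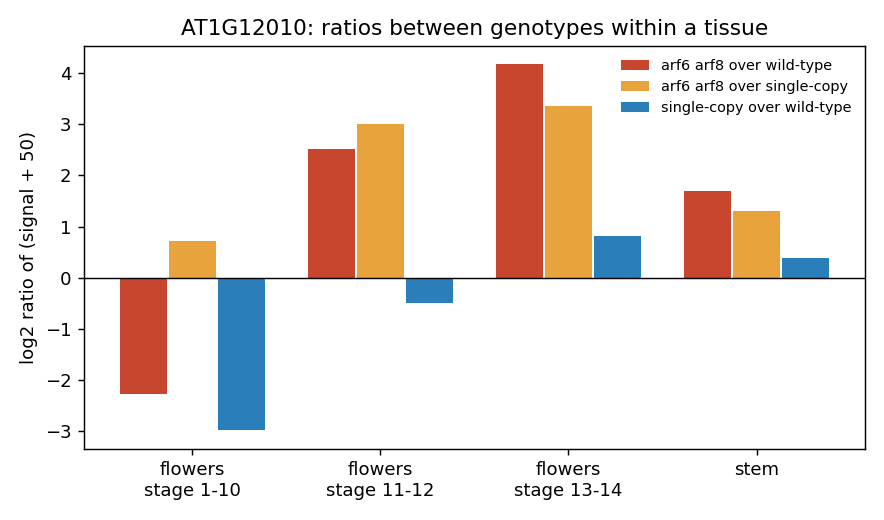
Log2 ratio of (signal + 50) of AT1G12010 between genotypes in each tissue, each bar from 1 pair of arrays without an error. Arf6 arf8 lies below wild-type only in young buds (-2.26) and above single-copy in all 4 tissues (0.72 to 3.36).

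The single-copy arrays were not used to choose the gene, but the wild-type arrays of stages 1-10 and 13-14 were, and they enter this comparison and the stage tests that follow. Within tissues the ratio was 0.127 in young buds, 0.713 at stages 11-12, 1.75 at stages 13-14 and 1.30 in stem. At stages 1-10, 3.71% of probe sets were at or under 0.5 in that pair of arrays. Over the 4 tissues the fitted difference of single-copy from wild-type was -0.57 on the log2 scale (SE 0.554, 95% interval -1.86 to 0.72, limma adjusted p = 0.928, lower in 2 of 4 tissues), so no difference was detected. Over all probe sets 3 passed that test (0.017%) and 984 had an unadjusted p under 0.05. The sign of the AT1G12010 difference rested on the young buds: without either the wild-type or the single-copy stage 1-10 array it was 0.23.

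The stage course was tested in the 8 wild-type and single-copy arrays, which leaves out arf6 arf8, with genotype as a block. No stage difference of AT1G12010 passed. Stage 11-12 minus stage 1-10 was -0.62 (SE 0.783, 95% interval -2.45 to 1.2, limma adjusted p = 0.775), where 5.49% of probe sets passed. Stage 13-14 minus stage 1-10 was -0.59 (SE 0.783, -2.42 to 1.23, limma adjusted p = 0.675), where 11.7% passed. Stage 13-14 minus stage 11-12 was 0.03 (SE 0.783, -1.79 to 1.86, limma adjusted p = 0.988), where 2.74% passed. Stem minus stage 1-10 was -0.21 (SE 0.783, -2.03 to 1.62, limma adjusted p = 0.896), where 8.22% passed. The SE of AT1G12010 compares with a median of 0.260 over all probe sets, and in all 4 of these differences the wild-type and single-copy arrays went in opposite directions. With the arf6 arf8 arrays added the differences from stage 1-10 turned positive (0.55 for stages 11-12, 0.92 for stages 13-14, 0.55 for stem). The gene was chosen for its levels in the arf6 arf8 arrays of stages 1-10 and 13-14. That choice favours this turn, which is therefore given without a test.

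The result depended on which young-bud array was used. Without the single-copy stage 1-10 array the differences of stages 11-12 and 13-14 from stages 1-10 were -2.23 and -2.20 (limma adjusted p = 0.0376 and 0.0271). Without the wild-type stage 1-10 array the same differences were 0.98 and 1.01 (limma adjusted p = 0.473 and 0.203). Leaving out the single-copy arrays of both stages 1-10 and 13-14 gave -2.09, -2.49 and, for stem, -1.67 (limma adjusted p = 0.00192, 0.000612 and 0.00696). In these refits stages 1-10, and in the last also stages 13-14, are left with 1 array that is assumed to vary like the other groups. Where that array is wild-type, it is one whose level chose the gene, so these p-values show only how the calls move and are no support for a stage difference. Those single-copy arrays stand at the ends of several array measures: the stage 1-10 array had the lowest median signal (191.85) and the highest 25S rRNA signal (179.8). The stage 13-14 array had the lowest 25S rRNA signal (41.5) and the lowest GAPDH 3' to 5' ratio (0.655). Other arrays stand at ends too. The wild-type stage 1-10 array had the highest median signal (235.3). The single-copy stage 11-12 array had a median signal of 194 and the highest GAPDH and actin 3' to 5' ratios (1.61 and 7.13). Among the arf6 arf8 arrays, that of stage 13-14, which holds the highest AT1G12010 signal, had a 25S rRNA signal of 147.2, next below the 179.8 above, and the lowest actin 3' to 5' ratio of the 12 (4.96, others up to 7.13). Its median signal was 225.75. The part of these measures in the AT1G12010 values was not tested.

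Ranked over all 12 arrays, the AT1G12010 signal spanned a 25.3-fold range of (signal + 50). Its residual SD on the log2 scale was 0.783 among wild-type and single-copy arrays and 1.09 in the fit of all 12. Of the 11 steps between neighbours in the ranking, 2 were larger than the former and 1 larger than the latter. The step of 1.31 from arf6 arf8 stem to single-copy stem was larger than both, and the step of 1.04 from arf6 arf8 stage 13-14 to stage 11-12 only than the smaller SD. A step is a difference between 2 arrays, which varies more than 1 array does. A step above either SD therefore does not set arrays apart. Above the step of 1.31 lay the arf6 arf8 stage 11-12, stage 13-14 and stem arrays and wild-type young buds, and below it the other 8 arrays, between 56.9 and 246.1. This order is a description, since the gene was chosen for several of these levels.

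Other probe sets shared the crossing of the genotypes. In 19 probe sets (0.108%) arf6 arf8 was at or under 0.5 of wild-type at stages 1-10 and at 2 or more at stages 13-14. The opposite crossing was found in 33 (0.187%). Of the 18 crossing probe sets other than that of AT1G12010, 5 are listed for 1 gene. They are HIS1-3 (AT2G18050), a linker histone known to respond to drought, SIS (AT5G02020), annotated as salt-induced and serine-rich, ZW9 (AT1G58270), AT2G05540 and AT3G59480. Over the flower stages HIS1-3 went from 671.0 to 202.6 and 371.3 in wild-type, whereas arf6 arf8 had 237.3, 1753.8 and 4816.5. ZW9 went from 806.9 to 439.3 and 143.4 in wild-type, whereas arf6 arf8 had 330.5, 800.1 and 1220.9. Both had their highest wild-type flower signal in young buds and their highest arf6 arf8 signal at stages 13-14, as AT1G12010 did. The rule that picked the 19 favours this shape, so it is no separate result. From stages 1-10 to 13-14 the wild-type signal fell in all 19, and that of arf6 arf8 rose at least 2-fold in 17.

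AT2G05540 went from 2712.2 to 1101.8 and 1031.4 in wild-type, against 1124.2, 7923.7 and 10245.7 in the double mutant. AT3G59480 went from 631.4 to 150.0 and 259.8, against 153.4, 275.4 and 833.1. Of the 5, SIS had the smallest ratio at stages 13-14, with a wild-type course of 1475.1, 1346.0 and 945.6 against 492.1, 1840.0 and 2418.7. AT1G12010 had the largest ratio at stages 13-14 of all 19, and 1 of the 19 had a lower ratio at stages 1-10. In 12 of the 19 the wild-type young-bud signal was at least 2-fold above the single-copy buds too. That pattern of the wild-type young-bud array, at least 2-fold above both other genotypes, covered 51 probe sets (0.289%). In stem, 3 of the 19, AT1G12010 included, were at least 2-fold higher in arf6 arf8 and 2 were at or under 0.5. Over all kept probe sets these shares were 2.53% and 1.62%. Most of the 19 thus did not share the 2-fold higher stem signal of AT1G12010 (log2 1.69).

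**Figure D3:**
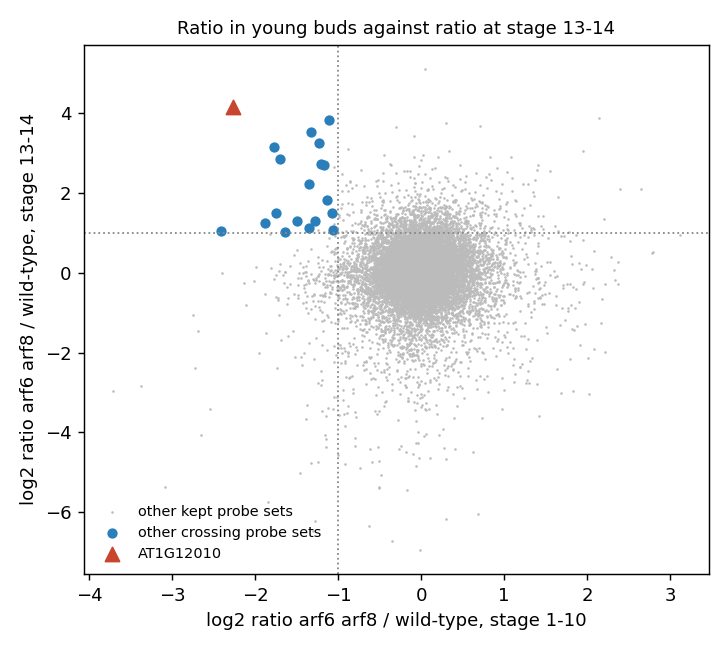
Log2 ratio of (signal + 50) of arf6 arf8 to wild-type at stage 1-10 (horizontal) and stage 13-14 (vertical) for each of the 17647 kept probe sets, 1 pair of arrays per axis; dotted lines mark ratios of 0.5 and 2. AT1G12010 lies at -2.26 and 4.17, above the other 18 crossing probe sets.

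The genes whose course was most like that of AT1G12010 were taken from the 9808 other kept probe sets of 1 gene by Pearson's r of log2(signal + 50) over the 12 arrays, which share genotypes and tissues, so r is a description. The 10 highest values ran from 0.910 to 0.974. They belong to AT1G52320 (0.974), AKINBETA1 (AT5G21170, 0.950), AT1G21680 (0.947), AT2G46550 (0.930), AT4G27450 (0.929), AT1G11380 (0.919), AT3G60300 (0.911), AT4G28260 (0.911), KUA1 (AT5G47390, 0.910) and AT2G34730 (0.910). AKINBETA1 encodes a regulatory subunit of the energy-sensing SnRK1 kinase. Its signal was 1481.1, 1200.9 and 914.8 over the wild-type flower stages, 603.7, 703.9 and 1207.4 in single-copy flowers and 1029.5, 2779.6 and 3815.1 in arf6 arf8. These single arrays ran downward in wild-type and upward in both mutants, over a 5.91-fold range. KUA1, a MYB-type transcription factor known to promote cell expansion, spanned 2.30-fold and was highest (1958.6) at arf6 arf8 stage 13-14. AT4G27450 had the widest range of the 10, 6.75-fold, from 798.6 in wild-type stem to 5678.4 at arf6 arf8 stage 13-14.

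All 10 of these genes had their highest signal in the arf6 arf8 stage 13-14 array, as AT1G12010 did. Picking by r over the same arrays favours this shared peak, so it is no separate result. All 10 had a narrower range than the 25.3-fold of AT1G12010. Without arf6 arf8, over 8 arrays, their r was 0.629 to 0.962, highest for AT1G52320, and 3 of the 10 stayed among the 10 highest. Of the 10, 6 stayed there without the wild-type stage 1-10 array and 5 in the 9 flower arrays. The 5 lowest values of r were -0.920 for AT5G19760, which encodes a mitochondrial dicarboxylate and tricarboxylate carrier, -0.875 for AT3G07090, -0.863 for AT5G48460, -0.857 for AT5G10620 and -0.855 for AT1G54020. In 4 of these 5 the arf6 arf8 stage 13-14 array was the lowest, which picking by r favours too. AT1G54020 ranged from 4477.2 in single-copy stage 11-12 flowers to 153.1 at arf6 arf8 stage 13-14.

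**Figure D4:**
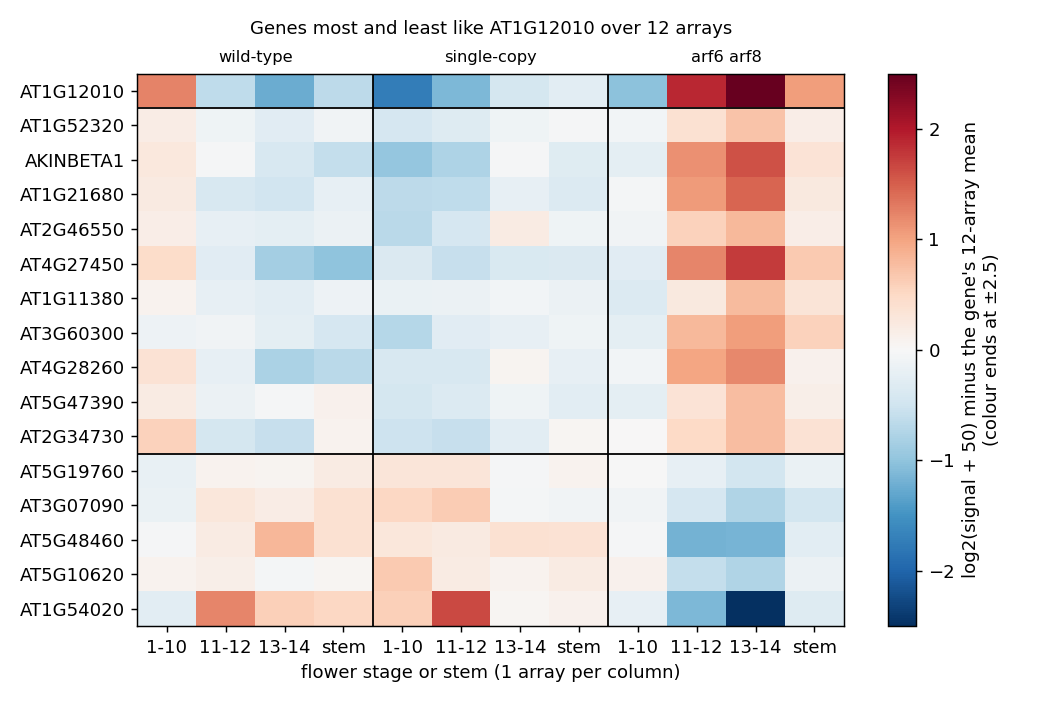
Log2(signal + 50) minus each gene's mean over the 12 arrays, for AT1G12010 (top), the 10 genes with the highest r with it and the 5 with the lowest (AT5G47390 is KUA1); columns are single arrays by genotype and tissue, and colours end at ±2.5. The arf6 arf8 stage 11-12 and 13-14 columns are red in the upper genes and blue in the lower ones, which picking by r favours. AT1G12010 has the strongest colours of the upper block.

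Of 64 loci written down for ethylene synthesis, perception, signalling and response, 4 have a probe set of 1 gene in the platform's table: AT1G12010, EIN3, RTE1 and PDF1.2. The other 4 ACC oxidase genes and all 9 ACC synthase genes are not among them and were not analysed here. EIN3, the transcription factor at the end of the ethylene pathway, held 1781.4, 1828.7 and 1813.0 over the wild-type flower stages, with 1107.8, 1337.3 and 2841.6 in single-copy and 1743.4, 2488.2 and 2704.4 in arf6 arf8. In older flowers (stages 11-12 and 13-14 in a single estimate), its difference of arf6 arf8 from wild-type was 0.50 (SE 0.271, limma adjusted p = 0.299). RTE1, which acts with the receptor ETR1 to hold ethylene responses back, ranged from 287.3 in wild-type stem to 669.0 in wild-type young buds, and its older-flower difference was 0.22 (SE 0.266, limma adjusted p = 0.659). PDF1.2, a defensin gene that ethylene and jasmonate induce together, stayed between 4.4 and 54.2 in all 12 arrays and was not kept. None of the 2 tested passed in any of the 7 comparisons. Of all probe sets, 5.96% passed for arf6 arf8 in older flowers. Over the 7 comparisons that share ran from 0.017% (single-copy minus wild-type) to 11.7% (stage 13-14 minus stage 1-10). So 0 of 2 genes shows no contrast with all probe sets.

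Among 19 senescence and abscission loci, SAG29, SAG101 and ADPG1 were measured. SAG29, a sugar transporter gene of the SWEET family, was at 272.3, 306.0 and 1650.5 over the wild-type flower stages, 408.3, 172.3 and 1422.4 in single-copy and 273.0, 256.5 and 297.8 in arf6 arf8. In the 8 wild-type and single-copy arrays it rose by 2.49 from stages 11-12 to 13-14 (SE 0.316, limma adjusted p = 0.0097) and differed in stem from young buds by -2.29 (SE 0.316, limma adjusted p = 0.00515). ADPG1, a polygalacturonase gene of dehiscence and abscission zones, went from 50.3 to 1178.0 and 162.5 in wild-type, from 115.0 to 2022.2 and 86.9 in single-copy and from 121.9 to 474.1 and 1069.7 in arf6 arf8. It rose by 3.63 to stages 11-12 (SE 0.356, limma adjusted p = 0.000939) and fell by 3.23 after them (SE 0.356, limma adjusted p = 0.00555) in wild-type and single-copy flowers. The fall after stages 11-12 and the last rise of SAG29 each lost the call without the wild-type or the single-copy stage 11-12 array (limma adjusted p = 0.0652 to 0.104). In arf6 arf8, SAG29 stayed low at stages 13-14 and ADPG1 was higher there than at stages 11-12. SAG101, an acyl hydrolase gene, ranged from 9.9 to 119.4.

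**Figure D5:**
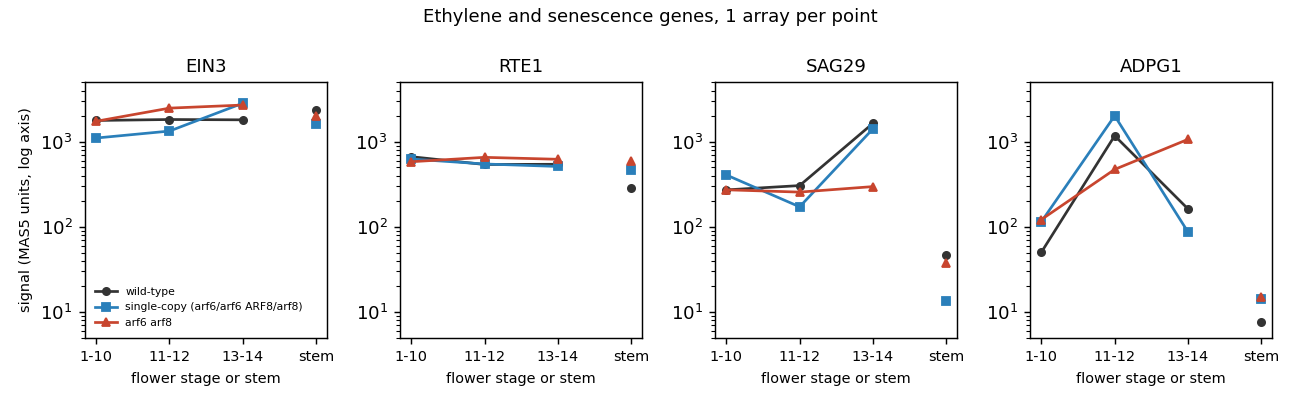
Signal (MAS5 units, log axis) of EIN3, RTE1, SAG29 and ADPG1 by flower stage and in stem, each point 1 array, lines joining the flower stages of a genotype. EIN3 and RTE1 stay within 1107.8 to 2841.6 and 287.3 to 669.0, whereas SAG29 reaches 1650.5 in wild-type and 297.8 in arf6 arf8 at stage 13-14.

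Together, of the 5 tested genes of these lists besides AT1G12010, 0 passed for arf6 arf8 against wild-type in older flowers (limma). An unadjusted p under 0.05 was found for 1 of the 5, SAG29, and for 23.7% of all probe sets (limma). The median difference was 0.22 beside 0.05 over all probe sets. For the arf6 arf8 effect in older flowers minus that in younger tissue (stages 1-10 and stem), 0 of the 5 and 0.295% of all probe sets passed. There 0 of the 5 and 10.7% of all probe sets had an unadjusted p under 0.05 (limma). With only 5 genes these counts show no contrast with all probe sets. In wild-type and single-copy flowers, 1 of the 5 rose to stages 11-12, where 4.07% of all probe sets rose. Between stages 11-12 and 13-14, 1 of the 5 rose and 1 fell, where 1.3% of all probe sets rose and 1.45% fell.

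Markers of other cells moved along the same arrays. The summed signal of 2 tapetum genes, A9 and AMS, of 14 written was 4849.7 in wild-type, 4314.3 in single-copy and 2559.7 in arf6 arf8 young buds, and 27.7 to 164.6 in the older flowers of all 3. AMS alone was at 1291.6 in wild-type buds, 448.3 in single-copy and 609.5 in arf6 arf8, and belongs to the 51 probe sets that stood out in the wild-type young-bud array. A9 alone was at 3558.1, 3866 and 1950.2 in the same buds, so it was not lower in single-copy than in wild-type. The 4 pollen genes measured of 12 summed to 1686.2, 1561.7 and 3518.5 in the young buds of wild-type, single-copy and arf6 arf8, and to 9699.8 to 12714.1 in older flowers. Most of that sum is the LAT52-like gene. MGH3, a histone gene of the male germline, was at 483.1 and 159.3 in older wild-type flowers, 317.1 and 180.0 in single-copy and 166.6 and 11.1 in arf6 arf8, and fell in older arf6 arf8 flowers (-1.54, SE 0.279, limma adjusted p = 0.0188), the only one of the 4 to pass. That call was lost without the wild-type stage 11-12, the wild-type stage 13-14 or the arf6 arf8 stage 13-14 array and in flower arrays alone (limma adjusted p = 0.0835 to 0.167). SWEET9, a nectary gene and the only one measured of 5 for nectary and open flower, was at 1310.2 and 5520.5 in older wild-type flowers, 1350.5 and 5201.4 in single-copy, and 46.7 and 83.9 in arf6 arf8. Of 3 secondary wall genes for stem, 0 were measured. The part of these cells in the AT1G12010 values was not tested. The 3 reference genes measured of 7, TIP41-like, SAND and GAPC2, summed to between 11199.9 and 14751 in the 12 arrays, most of it GAPC2. SAND alone was at 613.0, 493.7 and 402.0 over the wild-type flower stages, 343.1, 385.7 and 670.3 in single-copy and 655.9, 536.8 and 507.2 in arf6 arf8, so its wild-type and single-copy arrays ran in the same directions as those of AT1G12010. GAPC2 alone ran in the opposite directions in these genotypes. It was at 10197.5, 10228.9 and 11371.5 in wild-type flowers and at 12849.5, 11365.4 and 10973.8 in single-copy. TIP41-like lay between 470.8 and 684.5 and fell over the flower stages in both genotypes.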

How the data were processed

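Total RNA (about 7 µg per sample, TRIzol) was labelled with biotin and hybridised. The authors used MAS5, per the submitters' processing notes, which give no version. What they deposited is an intensity, linear and scaled per array: the mean without 2% of the values at each end was 500.03 to 500.04. Of 22810 probe sets, 64 controls were left out, and 17647 with a signal of 100 in at least 1 array were kept. Names come from the platform's probe table (14016 probe sets, 13513 of 1 gene), joined to RefSeq; it lists no probe set for ARF6 or ARF8. Values were tested as log2(signal + 50) by limma 3.58.1 under R 4.3.3 (eBayes with trend after lmFit, Benjamini-Hochberg over all kept probe sets, two-sided, threshold 0.05). The fits were also tried on simulated data with independent noise, which does not have the mixed residual described below. One model held genotype plus tissue in 8 wild-type and single-copy arrays. The other, in 12 arrays, held genotype by phase (older flowers against younger tissue) and tissue inside each phase. Their residual mixes array error with differences between genotypes or tissues, and p-values measure that spread alone. Named genes were the ACC oxidases, list members, the 10 highest and 5 lowest r, and crossing genes. The gene and the lists were chosen with earlier results of these data known. Alternatives were other pseudocounts, filters, scaling, array sets and each array left out.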

Additional observations from a re-analysis of the deposited data

Results flagged for a closer look

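AT1G12010 moved in opposite directions between tissues and between genotypes. The log2 ratio of arf6 arf8 to wild-type was -2.26 at stages 1-10 and 4.17 at stages 13-14, the pattern for which the gene was chosen, and the difference was not tested. From stages 1-10 to 13-14 it was -2.49 in wild-type and 1.30 in single-copy plants, each from 1 pair of arrays, and this difference was not tested either. The 5 other crossing genes had ratios above 0 at stages 13-14 (log2 1.51 for AT3G59480, 3.53 for HIS1-3, 1.31 for SIS, 3.25 for AT2G05540 and 2.72 for ZW9) and below 0 at stages 1-10, by the way they were chosen, and were not tested. SWEET9 was lower in older arf6 arf8 flowers beyond its difference in younger tissue by the interaction test (-4.36, SE 0.534, limma adjusted p = 0.0262). That call held in only 11 of 21 alternatives. It was lost in 6 of the 12 refits with 1 array left out and in flower arrays alone. No genotype and tissue had enough arrays to look for a single array far from its group.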

How the results depend on the processing

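No paired analysis was possible because the labels give no replicate numbers and each genotype and tissue has 1 array. Of 84 refits of the AT1G12010 tests, 5 passed the threshold, all 5 without the single-copy stage 1-10 array. With 1 array left out, stage 11-12 minus 1-10 ranged from -2.23 to 0.98, stage 13-14 minus 1-10 from -2.20 to 1.01, stage 13-14 minus 11-12 from -0.89 to 0.95, stem minus 1-10 from -1.81 to 1.40 and single-copy minus wild-type from -1.03 to 0.23. Without the single-copy arrays of stages 1-10 and 13-14 the differences from stages 1-10 were -2.09, -2.49 and, for stem, -1.67, and stage 13-14 minus 11-12 was -0.40. With all 8 wild-type and single-copy arrays, stage 13-14 minus 11-12 was 0.03 in the main fit and -0.0804 with quantile normalization. With all 12 arrays, which take in the arf6 arf8 arrays that chose the gene, the differences from stages 1-10 were 0.55, 0.92 and 0.55. The stage 13-14 ratio of arf6 arf8 to wild-type was 3.25 (log2) with a pseudocount of 200, which shrinks ratios of low signals, and its direction and those of the other tissues held with pseudocounts of 16 and 200 and quantile normalization. The stem alternative could not be run in flower arrays alone.

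Counts of calls moved with the arrays used. With 1 array left out, 968 (stage 11-12 minus 1-10) became 404 to 1999, 484 (13-14 minus 11-12) 0 to 4430, 2071 (13-14 minus 1-10) 1025 to 5513, 1451 (stem) 258 to 4476, 3 (single-copy) 0 to 24, 1052 (arf6 arf8, older flowers) 160 to 2338 and 52 (older minus younger) 0 to 136. Without the 2 single-copy arrays that stood apart they were 1727, 870, 2319 (stem), 75, 2444 and 30, and with all 12 arrays 1524, 3300 and 2393 for the differences from stages 1-10. Flower arrays alone gave 142 for 13-14 minus 11-12, 1348 for 13-14 minus 1-10, 0 for single-copy, 247 for older flowers and 0 for older minus younger. Without a filter the second and last counts were 311 and 14, a pseudocount of 16 made the last 33, one of 200 made the single-copy count 0, and without all 4 single-copy arrays the last pair was 2457 and 30. The cause was not tested. With all 12 arrays SAG29 lost both rises (limma adjusted p = 0.108 and 0.0566) and ADPG1 its fall (0.275). The SAG29 difference of stem lost its call without either stem array (0.0546 and 0.106).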
